A study of Mus musculus with 2 samples.

Results

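The genes described here encode 55 peptide hormones and neuropeptides, secreted messengers that are normally made by particular endocrine glands, gut cells or neurons. They were taken as a list of gene symbols for secreted peptides, by a rule that uses no measured value. Of the 55, 52 had a probe set annotated to that gene alone and were measured, among 19938 genes measured in all. Pthlh, Calca and Thpo had no such probe set in the tables used here and were not analysed. RNA came from cortical thymic epithelial cells (cTECs) of NOD mice, a diabetes-prone strain, at day 7. The Aire transgenic group (Tg) is a semi-knockin line in which Aire is expressed from the promoter of the thymoproteasome subunit β5t (gene Psmb11), which is active in the cortex of the thymus. The control group (non-Tg) is labelled only as control and shares the NOD background, the age and the cell type. The source labels name 7 Tg and 5 non-Tg, read here as the animals pooled for each of the 2 Affymetrix arrays. With 1 array per group, no difference below has a replicate check and no p-value was computed.

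Peptide hormones are cut from longer precursors by proprotein convertases and carboxypeptidases, stored in granules, released, and read by receptors on other cells. In the medulla of the thymus, epithelial cells transcribe many such tissue-restricted genes, in part under the control of Aire, and present their products to developing T cells, so that T cells reactive to them can be removed. Cortical epithelial cells serve mainly the positive selection of T cells. The comparison therefore addressed whether genes of this kind were detected at higher levels in cortical cells that carry Aire.

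Textbook accounts of hormone genes often describe promoters with a TATA box close to the start of transcription, or with a cyclic AMP response element. Promoter windows of 250 bases before to 50 bases after a gene's start, from RefSeq on GRCm38.p6, were held for 48 of the 55 genes, in 56 windows. The letters TATAAA stood on the gene's own strand, with the first base 20 to 40 bases before the start, in 16 of those 56 windows (28.6%), against 655 of all 32851 windows (1.99%). Those 16 windows belonged to 16 genes, among them Ppy, Cga, Pomc, Prl, Tshb, Gcg, Vip and Agt. Anywhere in the window and on either strand, TATAAA was found in 21 of the 56 (37.5%) and in 13.6% of all windows. The palindrome TGACGTCA, the core of the cyclic AMP response element, was found in 1 of the 56 windows, that of the somatostatin gene Sst, and in 1.79% of all windows. A match describes these letters and is no proof of a working site. The windows of 5 genes are printed 5′ to 3′ on the gene's strand, with the matched letters in capitals. Pth (chr7:113388524-113388823, minus strand) and Cck (chr9:121495645-121495944, minus strand) are shown because these genes had the widest differences of the list, Ppy (chr11:102101270-102101569, minus strand) and Cga (chr4:34893529-34893828, plus strand) as typical TATAAA windows, and Sst (chr16:23890795-23891094, minus strand) for its TGACGTCA.
Pth: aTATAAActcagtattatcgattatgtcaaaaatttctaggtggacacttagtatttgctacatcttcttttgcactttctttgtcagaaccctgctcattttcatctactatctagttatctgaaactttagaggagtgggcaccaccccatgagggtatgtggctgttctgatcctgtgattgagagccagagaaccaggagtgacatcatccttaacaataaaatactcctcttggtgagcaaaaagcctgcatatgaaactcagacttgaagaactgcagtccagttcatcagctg
Cck: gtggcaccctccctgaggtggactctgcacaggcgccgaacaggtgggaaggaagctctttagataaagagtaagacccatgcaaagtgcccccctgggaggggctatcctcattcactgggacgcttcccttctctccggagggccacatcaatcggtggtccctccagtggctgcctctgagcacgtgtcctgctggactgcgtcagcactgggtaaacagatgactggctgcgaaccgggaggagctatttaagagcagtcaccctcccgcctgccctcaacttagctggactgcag
Ppy: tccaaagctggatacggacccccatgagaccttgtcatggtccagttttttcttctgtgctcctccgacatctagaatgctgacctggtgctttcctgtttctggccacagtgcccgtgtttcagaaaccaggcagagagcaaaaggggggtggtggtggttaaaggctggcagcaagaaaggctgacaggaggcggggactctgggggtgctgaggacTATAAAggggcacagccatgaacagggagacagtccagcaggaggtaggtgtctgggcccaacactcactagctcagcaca
Cga: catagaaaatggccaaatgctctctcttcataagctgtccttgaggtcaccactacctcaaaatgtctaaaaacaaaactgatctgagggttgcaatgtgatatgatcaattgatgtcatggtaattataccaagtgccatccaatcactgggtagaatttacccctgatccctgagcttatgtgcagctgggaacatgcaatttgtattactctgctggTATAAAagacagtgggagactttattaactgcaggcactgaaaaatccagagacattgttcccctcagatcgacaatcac
Sst: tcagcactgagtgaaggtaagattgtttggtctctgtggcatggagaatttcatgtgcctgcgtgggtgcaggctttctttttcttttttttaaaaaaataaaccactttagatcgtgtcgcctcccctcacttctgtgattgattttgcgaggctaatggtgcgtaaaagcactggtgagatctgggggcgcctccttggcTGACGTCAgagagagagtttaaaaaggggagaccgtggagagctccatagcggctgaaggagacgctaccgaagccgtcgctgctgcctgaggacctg
In Ppy and Cga, TATAAA began 31 and 30 bases before the start. The match in Pth began 249 bases before the start, outside that range, and the window of Cck held none. TGACGTCA began 48 bases before the start of Sst.

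Levels are the deposited log2 values, and a ratio is the Tg level minus the non-Tg level on that scale. Levels of different probe sets depend on their probes and were not ranked against each other. Every array value below a log2 level of 4.80, the 25th percentile of both arrays, was raised to that floor for a ratio, and ratios stated as without the floor were not. A gene passed the filter if it reached the median of all probe sets (5.43 in Tg, 5.45 in non-Tg) on at least 1 array, and a gene past it was called higher or lower where the ratio reached 2-fold. As a check of the labels, Aire was at 7.33 in Tg and 6.06 in non-Tg, 2.43-fold higher. All 10 listed markers of cTECs passed the filter, with ratios from 0.01 to 0.37. Thymocyte RNA was on both arrays, with 8 of 9 measured markers past the filter and ratios from -0.49 to 0.21. Of medullary epithelial markers, 6 of 8 measured passed, with ratios from -0.39 for Tnfrsf11a to 0.77 for Ctss, and their summed linear levels were 2234 in Tg and 1828 in non-Tg. The basal keratin gene Krt5, at 10.73 in Tg and 10.39 in non-Tg, made up most of both sums. Of the 8 medullary ratios, 4 were below 0 and 4 above, and of the 6 past the filter, 2 were below 0 and 4 above. The listed marker Ccl21a had no probe set annotated to it alone and was not counted. Probe sets that it shares with other genes were near 7.83 in Tg and 7.56 in non-Tg. Macrophage and dendritic cell markers passed in 2 of 6 cases, Tyrobp at -0.58 and C1qa at -0.31. Over all 6, ratios ran from -0.58 to 0.33 for Cd68, with 3 below 0 and 3 above without the floor. The linear levels of the 6 summed to 241 in Tg and 275 in non-Tg. The filter was passed by 4 of 6 mesenchymal markers, whose ratios ran from -0.12 to 0.28 over all 6. As for endocrine cells, 2 of 5 measured genes of the thyroid (Slc5a5 and Foxe1) and 2 of 5 of neuroendocrine cells (Chga and Syp) passed, with ratios from -0.39 to 0.09 among these. Without the floor, all 5 thyroid ratios lay below 0, from -0.31 to -0.01, where 51.7% of all genes did. The 5 neuroendocrine ratios ran from -0.39 to 0.12, with 2 below 0 and 3 above. In none of these lists was a gene 2-fold apart, and the part of these cells in the members' levels was not tested. The pools also differed in the X-inactivation transcript Xist, at 7.78 in Tg and 6.28 in non-Tg, and in the Y-linked Eif2s3y, at 6.40 in Tg and 7.36 in non-Tg. The labels give no sex, and its part in the members' ratios was not tested.

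Most peptide hormone genes were dim on both arrays. Above the median of the Tg array lay 15 of the 52 (28.8%), where 54.0% of all genes did, and above the median of the non-Tg array lay 21 (40.4%), where 54.1% did. The 15 were above the median on both arrays. Another 6 were above it in non-Tg alone, and 0 in Tg alone. Over all 19938 genes, nearly equal numbers lay above each median, 10774 in Tg and 10778 in non-Tg. The share of all genes above it on 1 array alone was not counted. Several of the 6 were close to the line. Relative to the Tg median, Pomc lay at -0.01 and Edn3 at -0.04, and Edn2 passed the non-Tg median by 0.09. In all, 21 members passed the filter, against 57.3% of all genes, and 31 did not. Close to the line, Npy passed by 0.03, while Sst, Inha, Gh and Pdyn missed it by 0.04 to 0.06. Of members that passed, 0 were 2-fold higher in Tg, where 0.797% of all genes past the filter were. Pth alone was 2-fold lower, where 0.376% of all genes past the filter were. For 1 gene, those shares allow no statement about the list.

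**Figure D1:**
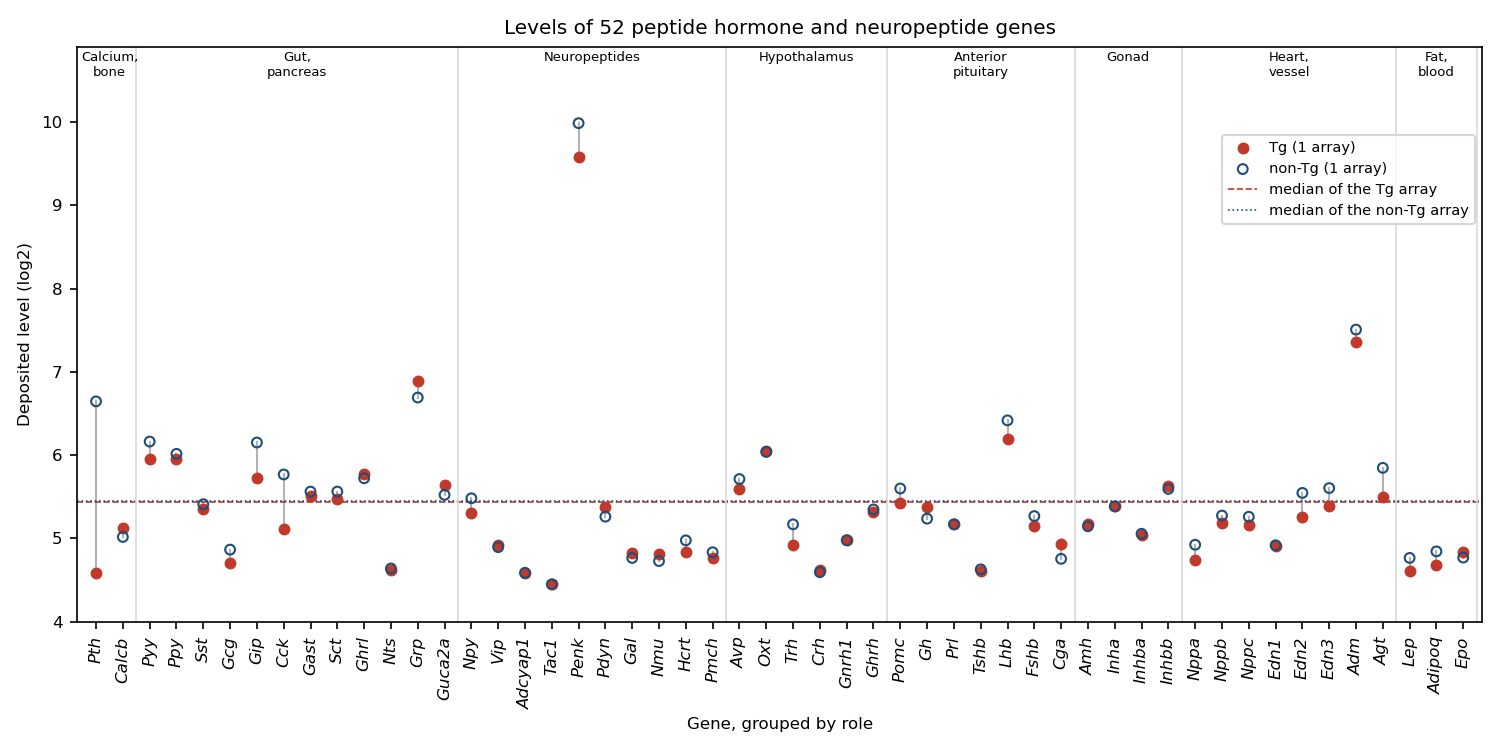
Deposited log2 level (vertical axis) of each of the 52 measured genes, grouped by role (horizontal axis), on the Tg array (filled) and the non-Tg array (open), with the median of each array as a dashed or dotted line. There is 1 array per group, so no error bars are drawn. Pth had the widest gap, and Penk, Adm, Grp and Oxt lay above both medians. Heights of different genes are not comparable.

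As deposited and without the floor, 33 of the 52 ratios lay below 0, 15 above and 4 at 0 exactly (63.5% below, against 51.7% of all genes and 56.0% of the genes not past the filter). That split depended on the scale: when the medians of the arrays were aligned, 28 lay below 0, 24 above and 0 at 0 exactly. The same counts came from quantile normalization. The members below 0 were then 53.8%, against 47.5% of all genes with the medians aligned and 50.9% with quantile normalization. The median ratio was -0.06 without the floor, against -0.01 over all genes, and -0.03 with it, against 0.00 over all genes. In size, 50 of the 52 ratios without the floor were under 0.5. The share of all genes under 0.5 was not counted, but ratios with the floor had an SD of 0.261 over all genes. Among genes not past the filter that SD was 0.109. An SD of 0.302, taken from pairs of probe sets of 1 gene in 658 genes, is the nearest measure of the error of a member's ratio. Both probe sets of each pair were past the filter, so this SD does not describe the 31 members that did not pass. The SD of 0.302 holds no variation between pools, and each of the 52 members had 1 probe set. The 4 members with identical deposited values on both arrays were Adcyap1 (4.59), Gnrh1 (4.98), Prl (5.17) and Inha (5.38). Identical values were found for 809 of all 28856 probe sets (2.80%). The 4 members did not pass the filter, and 391 of the 8516 genes not past it had identical values.

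**Figure D2:**
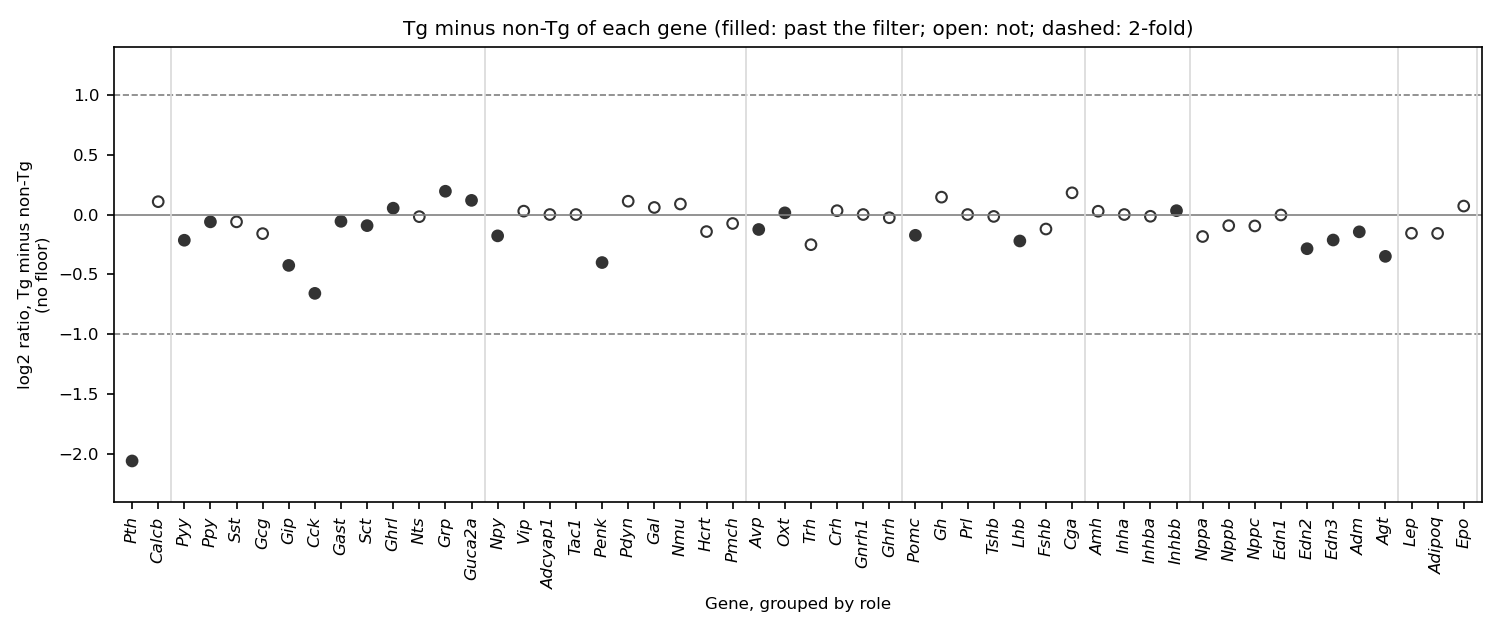
Log2 ratio of Tg minus non-Tg, without the floor (vertical axis), of each of the 52 measured genes in the same order by role (horizontal axis). Filled points passed the filter, open points did not, and dashed lines mark 2-fold. Pth alone lay beyond a dashed line, and Cck was next at -0.66.

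Parathyroid hormone (Pth), which raises blood calcium through bone and kidney, was the member with the widest difference. The Tg array gave 4.59, under the floor, and the non-Tg array 6.65. Its level was therefore at least 3.60-fold lower in Tg, a log2 ratio of -1.85 with the floor and -2.06 without it. It passed the filter through the non-Tg array alone, and a gene that does so is bound to be lower in Tg by some amount. Among the 500 genes closest in mean level, 0 had a ratio as low, and their SD was 0.253. The genes on either side of Pth on chromosome 7 among those measured, Btbd10 and Far1, had ratios of -0.19 and -0.01. Calcb, which encodes the β form of the vasodilator calcitonin gene-related peptide, was dim at 5.13 in Tg and 5.02 in non-Tg.

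The parathyroid gland and the thymus arise from the same pharyngeal pouch, and parathyroid cells can lie within or beside the thymus. Genes of parathyroid cells were therefore set beside Pth. Casr, the calcium-sensing receptor by which parathyroid cells control release of the hormone, lay below the median on both arrays, at 5.25 in Tg and 5.22 in non-Tg. Chga, which encodes the granule protein chromogranin A, was at 5.40 in Tg and 5.79 in non-Tg. Gata3, a transcription factor of the parathyroid that T cells also use, was at 5.42 in Tg and 5.68 in non-Tg. Gcm2, the regulator that specifies the parathyroid, was not analysed here. Of the 3 genes measured, 0 were 2-fold apart, and their summed linear levels were 123 in Tg and 144 in non-Tg. Their part in the Pth difference was not tested. In bulk RNA, fewer cells of a type and less RNA per cell cannot be told apart.

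Gut and pancreatic hormones were the members most often above the median: 9 of 12 passed the filter, where 57.3% of all genes did, and 0 were 2-fold apart. Some of the 9 were close to the line, with Sct 0.04 and Gast 0.07 above the Tg median. As deposited, 9 of the 12 ratios were below 0, where 51.7% of all genes were. When the medians were aligned or the arrays quantile normalized, 8 of the 12 were, where 47.5% and 50.9% of all genes were, respectively. The widest ratio of this group was that of Cck, the hormone cholecystokinin that makes the gallbladder contract and the pancreas release enzymes. The Tg array gave 5.11 and the non-Tg array 5.77, 1.58-fold lower in Tg, and 3 of the 500 genes closest in level had a ratio as low. Cck too passed the filter through non-Tg alone. Gip, an incretin that raises insulin release after meals, was at 5.73 in Tg and 6.15 in non-Tg, a ratio of -0.43, and 37 of its 500 level neighbours were as low.

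Other members of this group lay closer together. Pyy, the ileal satiety peptide YY, was at 5.95 in Tg and 6.16 in non-Tg. Its neighbour on chromosome 11, the pancreatic polypeptide gene Ppy, was at 5.95 in Tg and 6.02 in non-Tg. Both encode peptides of the neuropeptide Y family, and both ratios were under the probe-set SD. Gast (gastrin, which drives acid secretion) was at 5.51 in Tg and 5.56 in non-Tg. Sct (secretin, which drives bicarbonate secretion) was at 5.47 in Tg and 5.56 in non-Tg. Ghrl, Guca2a and Grp were the members of this group with ratios above 0. The hunger hormone gene Ghrl (ghrelin) was at 5.77 in Tg and 5.72 in non-Tg, and Guca2a (guanylin, which regulates intestinal fluid) at 5.64 and 5.52. Grp, which encodes gastrin-releasing peptide, was at 6.89 in Tg and 6.69 in non-Tg. Its ratio of 0.19 was the highest of all 52 members, and 0.19 is less than the spread of its level neighbours (SD 0.367). Sst (somatostatin, an inhibitor of hormone release), Gcg (the glucagon precursor) and Nts (neurotensin) did not pass, with levels from 4.62 to 5.41.

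Of 10 neuropeptide genes, Penk and Npy passed the filter. Penk encodes proenkephalin, the precursor of the enkephalin opioids, and lymphocytes also make it. It lay far above the median on both arrays, at 9.58 in Tg and 9.99 in non-Tg. The ratio of -0.40 (1.32-fold lower) did not reach 2-fold. It was wider than the SD of 0.246 of its level neighbours, of which 12 of 500 were as low. Npy, an appetite-stimulating peptide, was at 5.30 in Tg and 5.48 in non-Tg and passed through non-Tg alone. The remaining 8 were Vip and Adcyap1 (vasoactive peptides of 1 family), Tac1 (the substance P precursor), Pdyn (the dynorphin precursor), Gal (galanin), Nmu (neuromedin U), Hcrt (the wakefulness peptide orexin) and Pmch (melanin-concentrating hormone). Their levels lay between 4.45 and 5.37, and their ratios without the floor between -0.14 and 0.11.

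Of 6 hypothalamic hormones, Oxt and Avp passed the filter and 0 were 2-fold apart. Oxt, which encodes oxytocin and has been described in thymic epithelium, was at 6.05 in Tg and 6.04 in non-Tg, a ratio of 0.01. Avp, the antidiuretic hormone vasopressin and its neighbour on chromosome 2, was at 5.59 in Tg and 5.71 in non-Tg, a ratio of -0.13. Both genes lay above the median on both arrays. The releasing hormones Trh, Crh, Gnrh1 and Ghrh did not pass the filter, at levels from 4.59 to 5.35, with Trh lowest in ratio at -0.25.

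Among 7 anterior pituitary hormones, Lhb and Pomc passed the filter and 0 were 2-fold apart. Lhb, the β subunit of luteinizing hormone, was at 6.20 in Tg and 6.42 in non-Tg. Pomc, the precursor of corticotropin and β-endorphin, was at 5.43 in Tg, just under that array's median, and at 5.60 in non-Tg. Cga, the α subunit that Lhb needs to form its hormone, did not pass, at 4.94 in Tg and 4.75 in non-Tg. Without the floor its ratio was 0.18. Growth hormone (Gh), prolactin (Prl), and the β subunits Tshb and Fshb lay between 4.61 and 5.38.

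Gonadal, fat and blood hormones showed little signal. Inhbb, a subunit of activin and inhibin, was at 5.63 in Tg and 5.59 in non-Tg. The other inhibin and activin subunits Inha and Inhba and anti-Müllerian hormone (Amh) did not pass, with ratios between -0.01 and 0.03. Leptin (Lep) and adiponectin (Adipoq), which fat cells secrete, and erythropoietin (Epo), which drives red cell production, lay between 4.61 and 4.84 on both arrays.

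Heart and vessel peptides had a median ratio of -0.16 without the floor, and 0 of 8 were 2-fold apart. As deposited, 8 of 8 ratios were below 0, from -0.35 to 0.00 without the floor, where 51.7% of all genes were. When the medians were aligned or the arrays quantile normalized, 7 of 8 were, where 47.5% and 50.9% of all genes were, respectively. In size, all but Agt were under the probe-set SD of 0.302, which comes from genes past the filter, as 4 of these 8 were. Adm, which encodes the vasodilator adrenomedullin, lay well above the median, at 7.36 in Tg and 7.51 in non-Tg. Agt, the precursor of the pressor peptide angiotensin, was at 5.50 in Tg and 5.85 in non-Tg, a ratio of -0.35. The endothelin genes Edn2 and Edn3, whose products constrict vessels and guide neural crest cells respectively, were at 5.26 and 5.39 in Tg and 5.55 and 5.60 in non-Tg. They passed through non-Tg alone. Edn1 and the natriuretic peptide genes Nppa, Nppb and Nppc did not pass, at levels from 4.74 to 5.27.

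**Figure D3:**
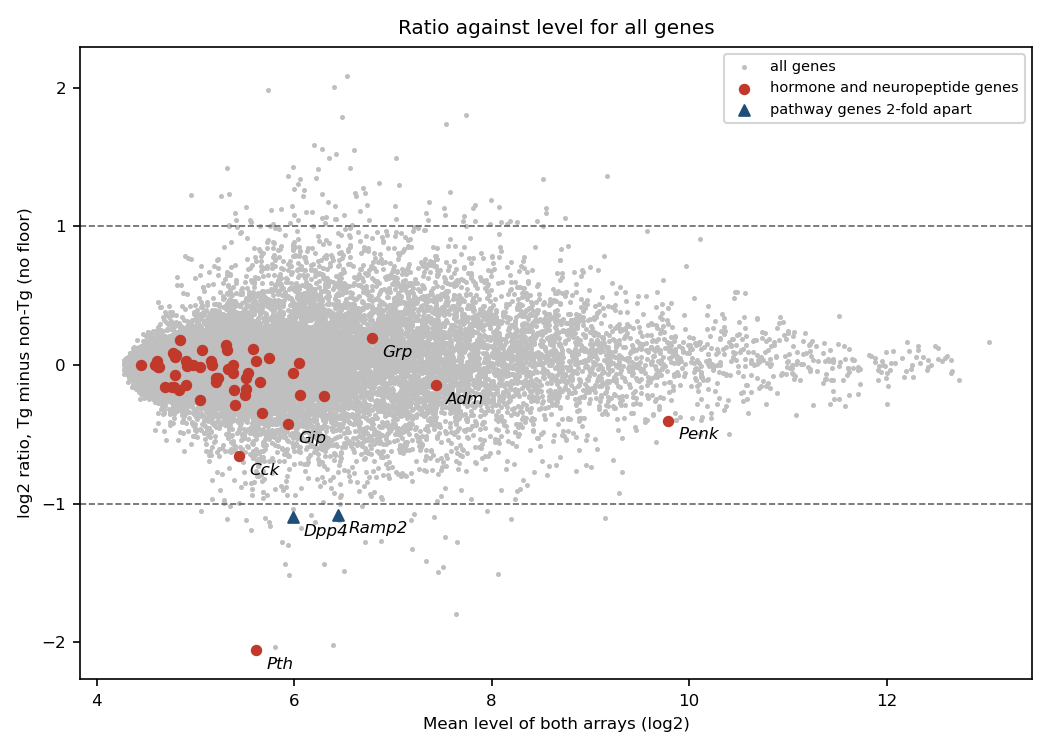
Log2 ratio without the floor (vertical axis) against the mean log2 level of both arrays (horizontal axis) for all 19938 genes (grey), the 52 hormone and neuropeptide genes (red) and the receptor and enzyme genes that were 2-fold apart (triangles). Dashed lines mark 2-fold. Pth stood at the lower edge of all genes of similar level, at -2.06, while Penk, far to the right, was at -0.40.

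Receptors for these peptides were then examined, as a list of 82 genes of which 77 were measured. The filter was passed by 26, 0 were 2-fold higher and 1 was 2-fold lower, and the list median was 0.00, as over all genes. In either direction, 1.17% of all genes past the filter were 2-fold apart. The lower gene was Ramp2, the accessory protein that makes the receptor Calcrl respond to adrenomedullin. Ramp2 was at 5.91 in Tg and 6.99 in non-Tg, 2.11-fold lower, and 4 of its 500 level neighbours were as low. Calcrl itself was at 7.19 in Tg and 7.59 in non-Tg, a ratio of -0.41. Ramp1, which turns Calcrl into the receptor of calcitonin gene-related peptide, had a ratio of -0.08, and Ramp3, which like Ramp2 serves adrenomedullin, -0.09. A further probe set annotated to both Malat1 and Ramp2 was at 12.7 on both arrays and was not used for Ramp2.

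Blood vessel cells are a known site of Calcrl and Ramp2. The filter was passed by 5 of 6 endothelial markers and none of the 6 reached 2-fold. Ratios ran from -0.25 to 0.48, and their summed linear levels were 605 in Tg and 591 in non-Tg. Their defining gene Cdh5 was at 7.87 in Tg and 8.02 in non-Tg, and Pecam1 at 7.30 and 6.82. The part of such cells in the Ramp2 difference was not tested. Other receptors past the filter included Ednrb, which binds all endothelins, at 7.85 in Tg and 8.24 in non-Tg, and Glp1r, the receptor for the glucagon-like peptide encoded by Gcg, at 7.52 and 7.79. The glucagon receptor Gcgr was at 5.51 in Tg and 5.16 in non-Tg, a ratio of 0.35, and the activin receptor Acvr2a at 7.03 and 6.71.

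Enzymes that mature the precursors did not differ by 2-fold. Of 16 measured, 12 passed the filter, with 8 ratios above 0 and 4 below and a list median of 0.09. Cpd, a carboxypeptidase that trims cut precursors, was the widest, at 8.26 in Tg and 7.67 in non-Tg, a ratio of 0.59. The convertase Pcsk6 was at 5.37 in Tg and 5.85 in non-Tg, while Pcsk7, another convertase, was at 5.77 and 5.41. Ace, which makes active angiotensin, was at 5.53 in Tg and 5.14 in non-Tg. Of 7 granule and vesicle genes, Chga, Vgf and Syp passed the filter and 0 were 2-fold apart. Vgf, a secretory granule precursor, had a ratio of -0.08 and the vesicle protein gene Syp 0.09.

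Among 7 measured genes for peptide breakdown or binding, 6 passed the filter and 1 was 2-fold lower. Dpp4, the peptidase that inactivates the incretins encoded by Gip and Gcg, was at 5.44 in Tg and 6.53 in non-Tg, 2.14-fold lower, and 3 of its 500 level neighbours were as low. T cells also carry Dpp4 as the surface protein CD26. Over the 9 measured thymocyte markers, the summed linear levels were 4581 in Tg and 5026 in non-Tg, 0 were 2-fold apart, and their part in the Dpp4 difference was not tested. Fstl3, a binder of activins, was at 6.14 in Tg and 6.79 in non-Tg, 1.58-fold lower. Enpep, the aminopeptidase that cleaves angiotensin and marks cTECs, was at 8.51 in Tg and 8.03 in non-Tg. The ratio of Fst (follistatin, another activin binder) was -0.11, and those of the broad peptidases Mme and Ide were -0.02 and 0.09.

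**Figure D4:**
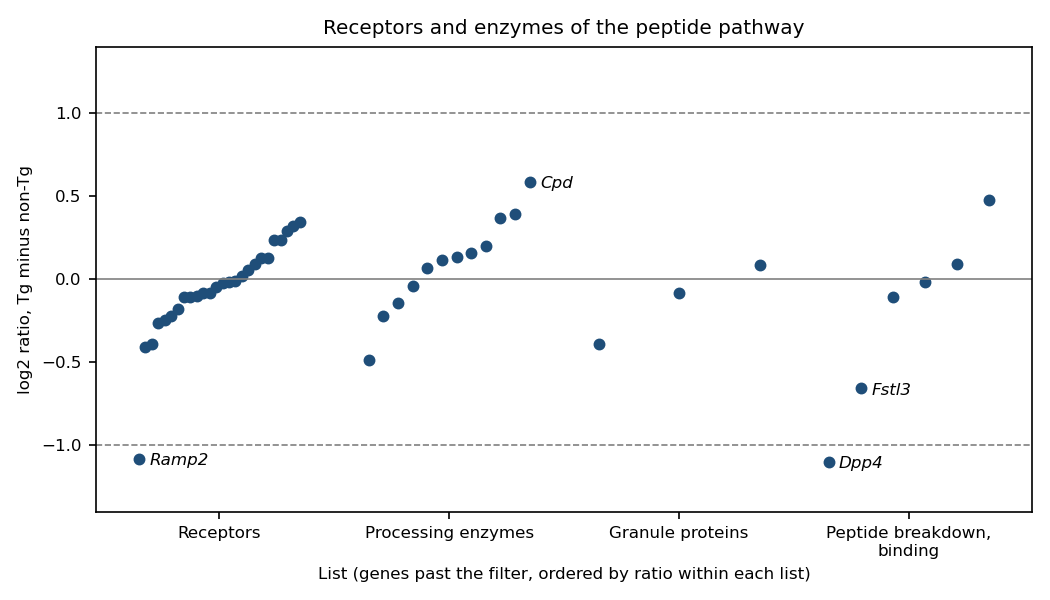
Log2 ratio of Tg minus non-Tg (vertical axis) of the receptor, processing, granule and breakdown or binding genes that passed the filter, ordered by ratio within each list (horizontal axis). Each point is a gene, and dashed lines mark 2-fold. Ramp2 and Dpp4 lay below the lower line, and 0 genes lay above the upper line.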

How the data were processed

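Expression was measured on 2 Affymetrix arrays, 1 per group. Per the labels' protocols, RNA was extracted with a column kit and 400 pg was amplified with the Ovation One-Direct system. Each array has deposited log2 values for 28856 probe sets. That scale was inferred from their range, 4.22 to 13.7. How the authors corrected, normalized and summarised the probes, and on which genome build, is not given in the labels or headers. Probe sets were named from the platform annotation: 21789 had 1 symbol and were used, 1621 had several and 5446 had none. Per gene, the probe set of highest mean over both arrays was taken. Values were used as deposited, with a floor at the 25th percentile and a filter at the 50th. In place of a test, a difference of 2-fold was counted. Detection calls, scanner files and scan dates were not used here, so batch and group cannot be told apart, and the number of arrays limits precision. The members and lists were chosen with earlier results of these data known. Values are given for members past the filter or with a ratio of at least 0.5 in size, and for listed pathway genes 2-fold apart or, failing those, the 4 widest past the filter. Genes named beyond this, such as the other receptors and enzymes, were chosen after their values were seen. Alternatives changed the floor, filter, probe set rule, scaling and fold. The counting rule was also run on simulated arrays, with changes planted only in genes at levels above those of most members. That run therefore gives no measure of recovery at the levels of dim members, and its outcome is not reported here. Software was Python 3.11.15, pandas 2.3.3, numpy 2.4.6 and matplotlib 3.10.9.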

Additional observations from a re-analysis of the deposited data

How the results depend on the processing

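The count of members 2-fold higher was 0 under each alternative run, including 1.5-fold in place of 2-fold. The count of members 2-fold lower was 1, Pth, except that it was 0 with the filter required on both arrays, which Pth fails by construction, and 2 with 1.5-fold, where Cck joined. The Pth ratio ran from -1.20 with the floor at the 50th percentile to -2.06 without a floor. The count of receptor, enzyme and binding genes 2-fold apart was 2. It was 1 with the filter at the 75th percentile, which Dpp4 did not reach on either array. It was also 1 when probe sets with several symbols were used too, where the Malat1 and Ramp2 probe set replaced that of Ramp2. It was 4 with 1.5-fold, where Cpd and Fstl3 joined. The median ratio of the members ran from -0.06 to 0.00 over the alternatives. Of 100 ratios of the other 20 members past the filter under 5 alternatives, 0 changed sign. Only median alignment and quantile normalization could have changed a sign. These members have 1 probe set each and lie above the floor, so averaging probe sets or dropping the floor left their ratios as they were. A higher floor cannot reverse a sign. The widest shift was 0.33 for Cck (to -0.32) with the floor at the 50th percentile, which compresses dim values. No paired analysis was possible because each group has 1 array. Values near the lower bound compress ratios, so that a change in a transcript that stays near background was not detectable.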

Other observations

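Further peptide hormone genes outside the 55 were looked up, as a list of 42 made from general knowledge after the values above had been seen. Of these, 37 were measured and 18 passed the filter. The median ratio was -0.03, and 0 reached 2-fold. Insl6, an insulin-family peptide known from the testis, was the widest, at 6.01 in Tg and 5.17 in non-Tg, 1.79-fold higher. It passed the filter through Tg alone, which favours a ratio above 0. Rln3, a relaxin-family neuropeptide, was at 5.71 in Tg and 6.16 in non-Tg. Qrfp, an appetite-related neuropeptide, was at 5.43 in Tg and 5.74 in non-Tg. The vascular peptide apelin (Apln) was at 5.75 in Tg and 6.02 in non-Tg, and Adm2, a relative of adrenomedullin, at 5.90 and 5.71. Igf2, a fetal growth factor, was at 5.82 in Tg and 5.65 in non-Tg. Each of these genes had 1 probe set, and none reached 2-fold.

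Identical deposited values on both arrays were found for 4 of the 52 members (7.69%), against 2.80% of all probe sets. These 4 members did not pass the filter. Among the genes not past the filter, 391 of 8516 had identical values, against 504 of 19938 genes in all. The 4 identical values are too few for a statement about the list. The cause of the identical values was not tested.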
